A study of Mus musculus with 123 samples.

Results

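The 10 genes described here are components of the Hippo signalling pathway and the transcription factors at its end: the TEAD factors Tead1, Tead2, Tead3 and Tead4, the coactivators Yap1 and Wwtr1 (TAZ), the kinases Lats1 and Lats2, and the upstream regulators Amot and Nf2. They were chosen by symbol, as the rows of the deposited UMI table that carry these names, and they make up 10 of the 29022 genes in the table. The table holds unique molecular identifier (UMI) counts, each standing for 1 captured transcript, from single mouse embryos or inner cell masses (ICMs), with 1 library each. Of these, 68 belong to an Oct4 (Pou5f1) line and 55 to a Sox2 line, of label strain B6C3F1. In the Ctrl and KO embryos of both lines the maternal copy of the targeted gene was deleted in the oocyte. Mothers carried floxed alleles (Pou5f1 flox/flox or Sox2 flox/flox) and Zp3-Cre, which is expressed in the growing oocyte, and fathers carried 1 reporter-targeted allele (Pou5f1 +/mKO2 or Sox2 +/EGFP). Ctrl embryos inherited the intact paternal allele, so that they lack the maternal contribution only, and KO embryos inherited the reporter allele and lack both the maternal and the zygotic gene. They were told apart by the fluorescence of the reporter. A further genotype label, MWT, is not spelled out in the labels. The study's text speaks of wild-type embryos sequenced beside those that lack the maternal gene, and the label may stand for these. Morulae were taken at E2.75. Early and late ICMs, labelled E3.75 and E4.5, came from embryos taken at E2.5, cultured in KSOM medium with the MEK inhibitor PD0325901 at 1 µM and stripped of their trophectoderm by immunosurgery. The labels of the 5 Oct4 MWT early ICMs state no inhibitor treatment, and those of these 5 and of the 8 Oct4 MWT late ICMs disagree on the stage, as described with their results. Stage, culture, inhibitor and isolation therefore change together between morulae and ICMs. Females were superovulated. Each Ctrl and KO group of a line and stage holds 8 embryos. The MWT groups hold 7 Oct4 morulae, 5 Oct4 early ICMs, 8 Oct4 late ICMs and 7 Sox2 early ICMs.

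In mammalian cells the Hippo kinases LATS1 and LATS2 phosphorylate the coactivators YAP and TAZ and keep them out of the nucleus, where they would otherwise bind TEAD factors and switch on TEAD target genes. In the mouse morula and blastocyst, outer cells have an apical domain that holds the pathway off, so that nuclear YAP and TEAD4 drive trophectoderm genes such as Cdx2. In inner cells angiomotin (AMOT) and merlin (NF2) at cell junctions activate LATS and keep YAP in the cytoplasm. The measurements below are of transcript levels, and say nothing of the phosphorylation or the location of these proteins.

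Total UMIs ran from 525755 to 1344035 per embryo. Levels are given in CPM, UMIs as counts per 1e6 of the TMM-scaled library size. With 1 UMI per transcript end no division by length was made, and levels are compared for 1 gene between groups and not between genes. Pou5f1 was near absent in Oct4-KO embryos, at 0.431 ± 1.22, 1.03 ± 1.59 and 0.156 ± 0.441 CPM (mean ± SD, n = 8) in morulae, early and late ICMs, against 21.1 ± 5.09, 77.7 ± 13.1 and 43.8 ± 13.4 in Ctrl. Sox2 in Sox2-KO embryos was at 1.56 ± 1.17, 24.3 ± 10.3 and 16.7 ± 7.71 CPM, against 13.7 ± 8.41, 106 ± 38.6 and 174 ± 62.8 in Ctrl, so that Sox2 UMIs were still counted in the ICMs labelled KO. Which part of the locus they come from was not examined. By nearness to the mean profiles of the Oct4 Ctrl stages, 5 of the 8 Sox2 Ctrl early ICMs lay closer to late than to early ICMs. So did 3 of the 8 Sox2-KO early ICMs, while 3 of the 8 Oct4-KO and 4 of the 8 Sox2-KO late ICMs lay closer to early ICMs. The KO comparisons at the early and late stages include these embryos, and the part of a stage difference between KO and Ctrl in them was not tested.

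Of the 10 genes, 1 was called different between Oct4-KO and Ctrl morulae, none between early ICMs and 4 between late ICMs, all higher in KO. In the Sox2 line the same counts were 0, 0 and 1, the last also higher in KO. A call is an adjusted p under 0.05 in edgeR's quasi-likelihood test across all genes tested, with a log2 fold change of at least 1 in size. Of all 14053 genes tested, 0.804% were called in Oct4-KO morulae, 10.9% in early ICMs and 18.1% in late ICMs, and 0.00712%, 3.27% and 6.95% in the same stages of the Sox2-KO line. By adjusted p alone, without the fold minimum, 2, 3 and 7 of the 10 genes passed in Oct4-KO morulae, early and late ICMs, where 1.47%, 21% and 31.7% of all genes did. In the Sox2-KO line 0, 1 and 3 passed, where 0.00712%, 7.04% and 13.8% did. The median log2 fold change of the 10 genes was -0.21, -0.03 and 0.74 in the 3 Oct4-KO stages, beside 0.01, 0.01 and -0.01 over all genes tested. It was -0.06, 0.19 and 0.20 in the Sox2-KO stages, beside 0.01, -0.01 and 0.00. Where 0 members were called, 4 in Oct4-KO early ICMs, 0 in Sox2-KO morulae and 1 in Sox2-KO early ICMs had an unadjusted edgeR p under 0.05, and DESeq2 called 1, 0 and 0 there. In the accounts below, "rose" and "fell" are kept for genes that were called.

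**Figure D1:**
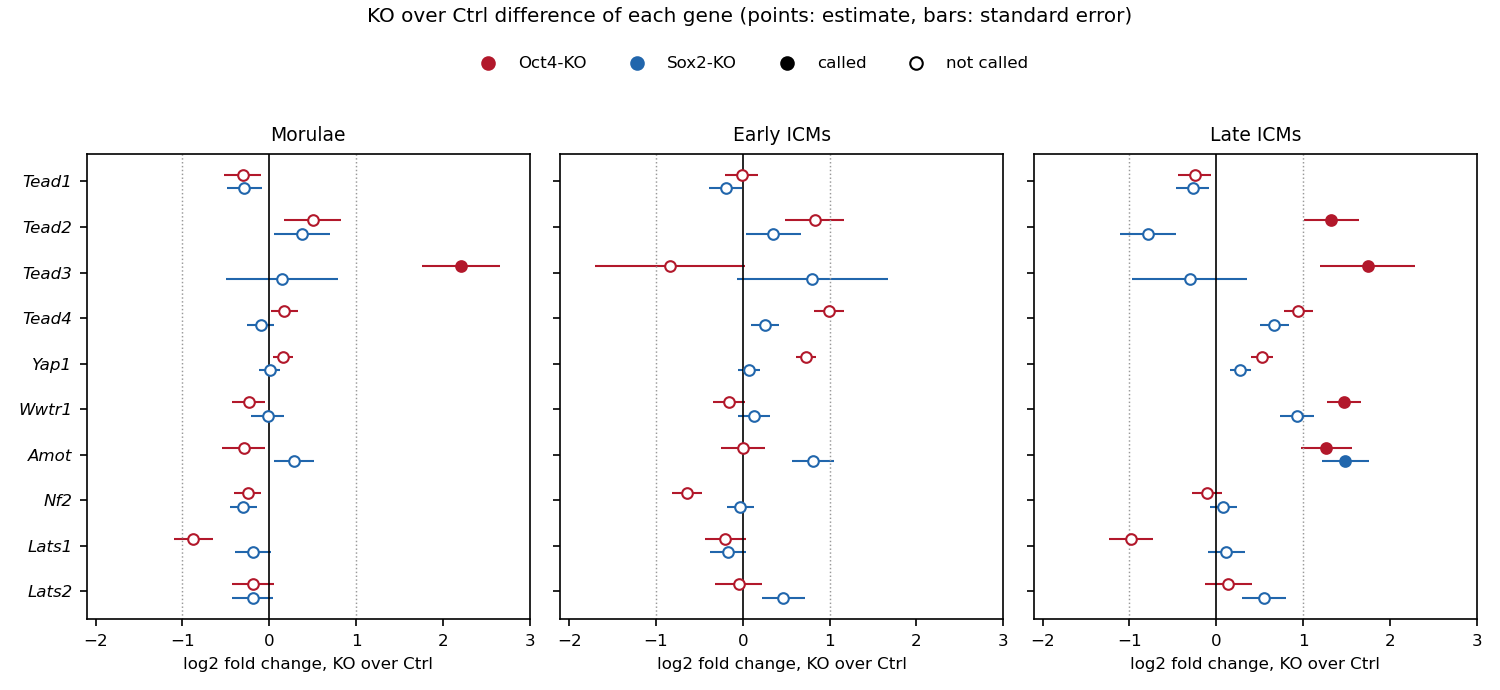
Log2 fold change of KO over Ctrl on the horizontal axis for each of the 10 genes, in both lines, with 1 panel each for morulae, early ICMs and late ICMs, with the SE as bars, from 8 embryos a group; filled points mark calls and dotted lines the fold minimum. The filled points are Tead3 in Oct4-KO morulae at 2.21, Tead2, Tead3, Wwtr1 and Amot in Oct4-KO late ICMs between 1.27 and 1.74, and Amot in Sox2-KO late ICMs at 1.49.

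Markers of cell types also differed between KO and Ctrl, in part in comparisons where no member was called. Summed over 12 trophectoderm markers (Cdx2, Gata3, Krt8 and others), levels in late ICMs had a lowest, median and highest value of 659.5, 1289.5 and 2225 CPM in Oct4 Ctrl and 2838, 4864 and 6448 CPM in Oct4-KO, which do not overlap. In Oct4 MWT late ICMs they were 368, 858 and 3485 CPM, which overlap both. They were 362, 874 and 4153 CPM in Sox2 Ctrl and 1274, 1931 and 4094 CPM in Sox2-KO, which overlap. In early ICMs of that line they were 271, 633 and 814 CPM in Ctrl and 1347, 1749 and 3196 CPM in KO, which do not. None of the 12 markers was at 0 in every embryo of an ICM group. Of the 12 markers, 11 were called higher in Oct4-KO late ICMs, and 3 higher and 1 lower in early ICMs. In the Sox2-KO line 7 were called higher and 1 lower in early ICMs and 5 higher in late ICMs. None was called in morulae of either line. Of 12 epiblast markers, which include the targeted genes, 8 were called lower in Oct4-KO early ICMs and 10 in late ICMs. In each of the Sox2-KO ICM stages 5 were, and in the morulae of each line 1, the targeted gene itself. Of 10 tested primitive endoderm markers, 2 were called higher and 3 lower in Oct4-KO early ICMs, and 3 higher and 5 lower in Oct4-KO late ICMs. In the Sox2-KO line 2 were called higher in early ICMs and 1 lower in late ICMs. Col4a1 alone was called, higher, in Oct4-KO morulae. In these bulk samples more cells of a type and more RNA per cell cannot be told apart. The part of other cell types in the results on the Hippo genes was not tested.

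Tead3, on chromosome 17 at 28331671 to 28350817 (mm10, minus strand), encodes a TEAD family DNA-binding protein that partners YAP and TAZ, and was the member with the largest difference in morulae. In Oct4 Ctrl morulae its lowest, median and highest levels were 0.979, 4.48 and 20.3 CPM, and in Oct4-KO morulae 17.6, 26.8 and 55.01 CPM. All but 1 of the KO morulae lay above the highest Ctrl morula. Tead3 rose in Oct4-KO morulae by a log2 fold change (KO over Ctrl, ± SE) of 2.21 ± 0.45 (adjusted p = 0.00113), the 1 member called where 0.804% of all genes were. In early ICMs the gene was nearly silent, and 10 UMIs were counted over the 8 Oct4 Ctrl and 5 over the 8 Oct4-KO embryos, so a difference there was not detectable at this depth (-0.84 ± 0.86, adjusted p = 0.542). In late ICMs the levels were 0, 2.70 and 10.2 CPM in Ctrl and 1.58, 6.80 and 42.03 CPM in KO, and the groups overlapped. The rise there, 1.74 ± 0.55 (adjusted p = 0.00892), rested on 1 KO embryo at 42.03 CPM, and without it the log2 fold change was 1.17 (adjusted p = 0.101), under the threshold. In the Sox2 line Tead3 stayed at or under 7.88 CPM in every Ctrl and KO embryo and was called in no KO comparison, with 0.15 ± 0.65 (adjusted p = 1.00) in morulae. The difference between the Oct4-KO and Sox2-KO effects in morulae, 2.06 ± 0.82 (adjusted p = 0.385), did not pass the test.

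Tead4 (chromosome 6, 128224288 to 128300823, minus strand) encodes the TEAD factor needed to specify trophectoderm, and differed in both ICM stages of the Oct4 line. In early ICMs its lowest, median and highest levels were 25.4, 40.9 and 75.9 CPM in Oct4 Ctrl and 42.3, 86.2 and 128 CPM in Oct4-KO. The mean was 88.96 ± 24.2 CPM in KO against 44.6 ± 17.4 in Ctrl (± SD, n = 8), and 7 of the 8 KO ICMs lay above the highest Ctrl ICM. The log2 fold change was 0.995 ± 0.17 (adjusted p = 2.76e-06), just under the fold minimum of 1, and was therefore not called. In late ICMs it was 0.95 ± 0.17 (adjusted p = 4.87e-06) in Oct4-KO, with 41.02, 52.1 and 65.3 CPM in Ctrl and 47.4, 97.3 and 189 CPM in KO. It was 0.67 ± 0.17 (adjusted p = 0.00235) in Sox2-KO late ICMs, with 40.1, 50.96 and 70.1 CPM in Ctrl and 70.9, 86.8 and 106 CPM in KO. Both pass by adjusted p and miss the fold minimum. Here 7 of 8 Oct4-KO and 8 of 8 Sox2-KO late ICMs lay above the highest Ctrl ICM of their line. In Sox2-KO early ICMs the value was 0.26 ± 0.16 (adjusted p = 0.399), and in morulae it was 0.17 ± 0.16 (adjusted p = 0.755) in the Oct4 line and -0.10 ± 0.15 (adjusted p = 1.00) in the Sox2 line.

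Tead2 (chromosome 7, 45215753 to 45233644, plus strand), a TEAD factor expressed early in development, differed in its response between the 2 lines at the late stage. Its lowest, median and highest levels in late ICMs were 18.4, 48.5 and 75.5 CPM in Oct4 Ctrl and 71.3, 115 and 168 CPM in Oct4-KO, with 7 of 8 KO ICMs above the highest Ctrl ICM. Tead2 rose in Oct4-KO late ICMs, by 1.33 ± 0.31 (adjusted p = 4.16e-04). Oct4 MWT late ICMs, which are not labelled KO, were at 44.3, 76.7 and 113 CPM, and overlap both Ctrl and KO. Against Ctrl their log2 fold change was 0.74 ± 0.30 (adjusted p = 0.216), which did not pass. In the Sox2 line the levels were 32.8, 59.1 and 92.9 CPM in Ctrl and 22.5, 34.7 and 51.3 CPM in KO, groups that overlap, with a log2 fold change of -0.79 ± 0.32 (adjusted p = 0.0901) that did not pass. The difference between the Oct4-KO and Sox2-KO effects was itself called, at 2.12 ± 0.45 (adjusted p = 5.45e-04). In early ICMs the Oct4-KO value was 0.83 ± 0.34 (adjusted p = 0.0672). Exons of Tead2 overlap those of Cd37 on the other strand, and whether the counting used the strand is not given in the sources used here. Cd37 holds 35 UMIs over all embryos and Tead2 4941. Tead1 (chromosome 7, 112679318 to 112906807, plus strand), a broadly expressed TEAD factor, was called in no KO comparison. Its values ran from -0.31 ± 0.21 (adjusted p = 0.633) in Oct4-KO morulae to -0.01 ± 0.19 (adjusted p = 0.992) in Oct4-KO early ICMs.

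**Figure D2:**
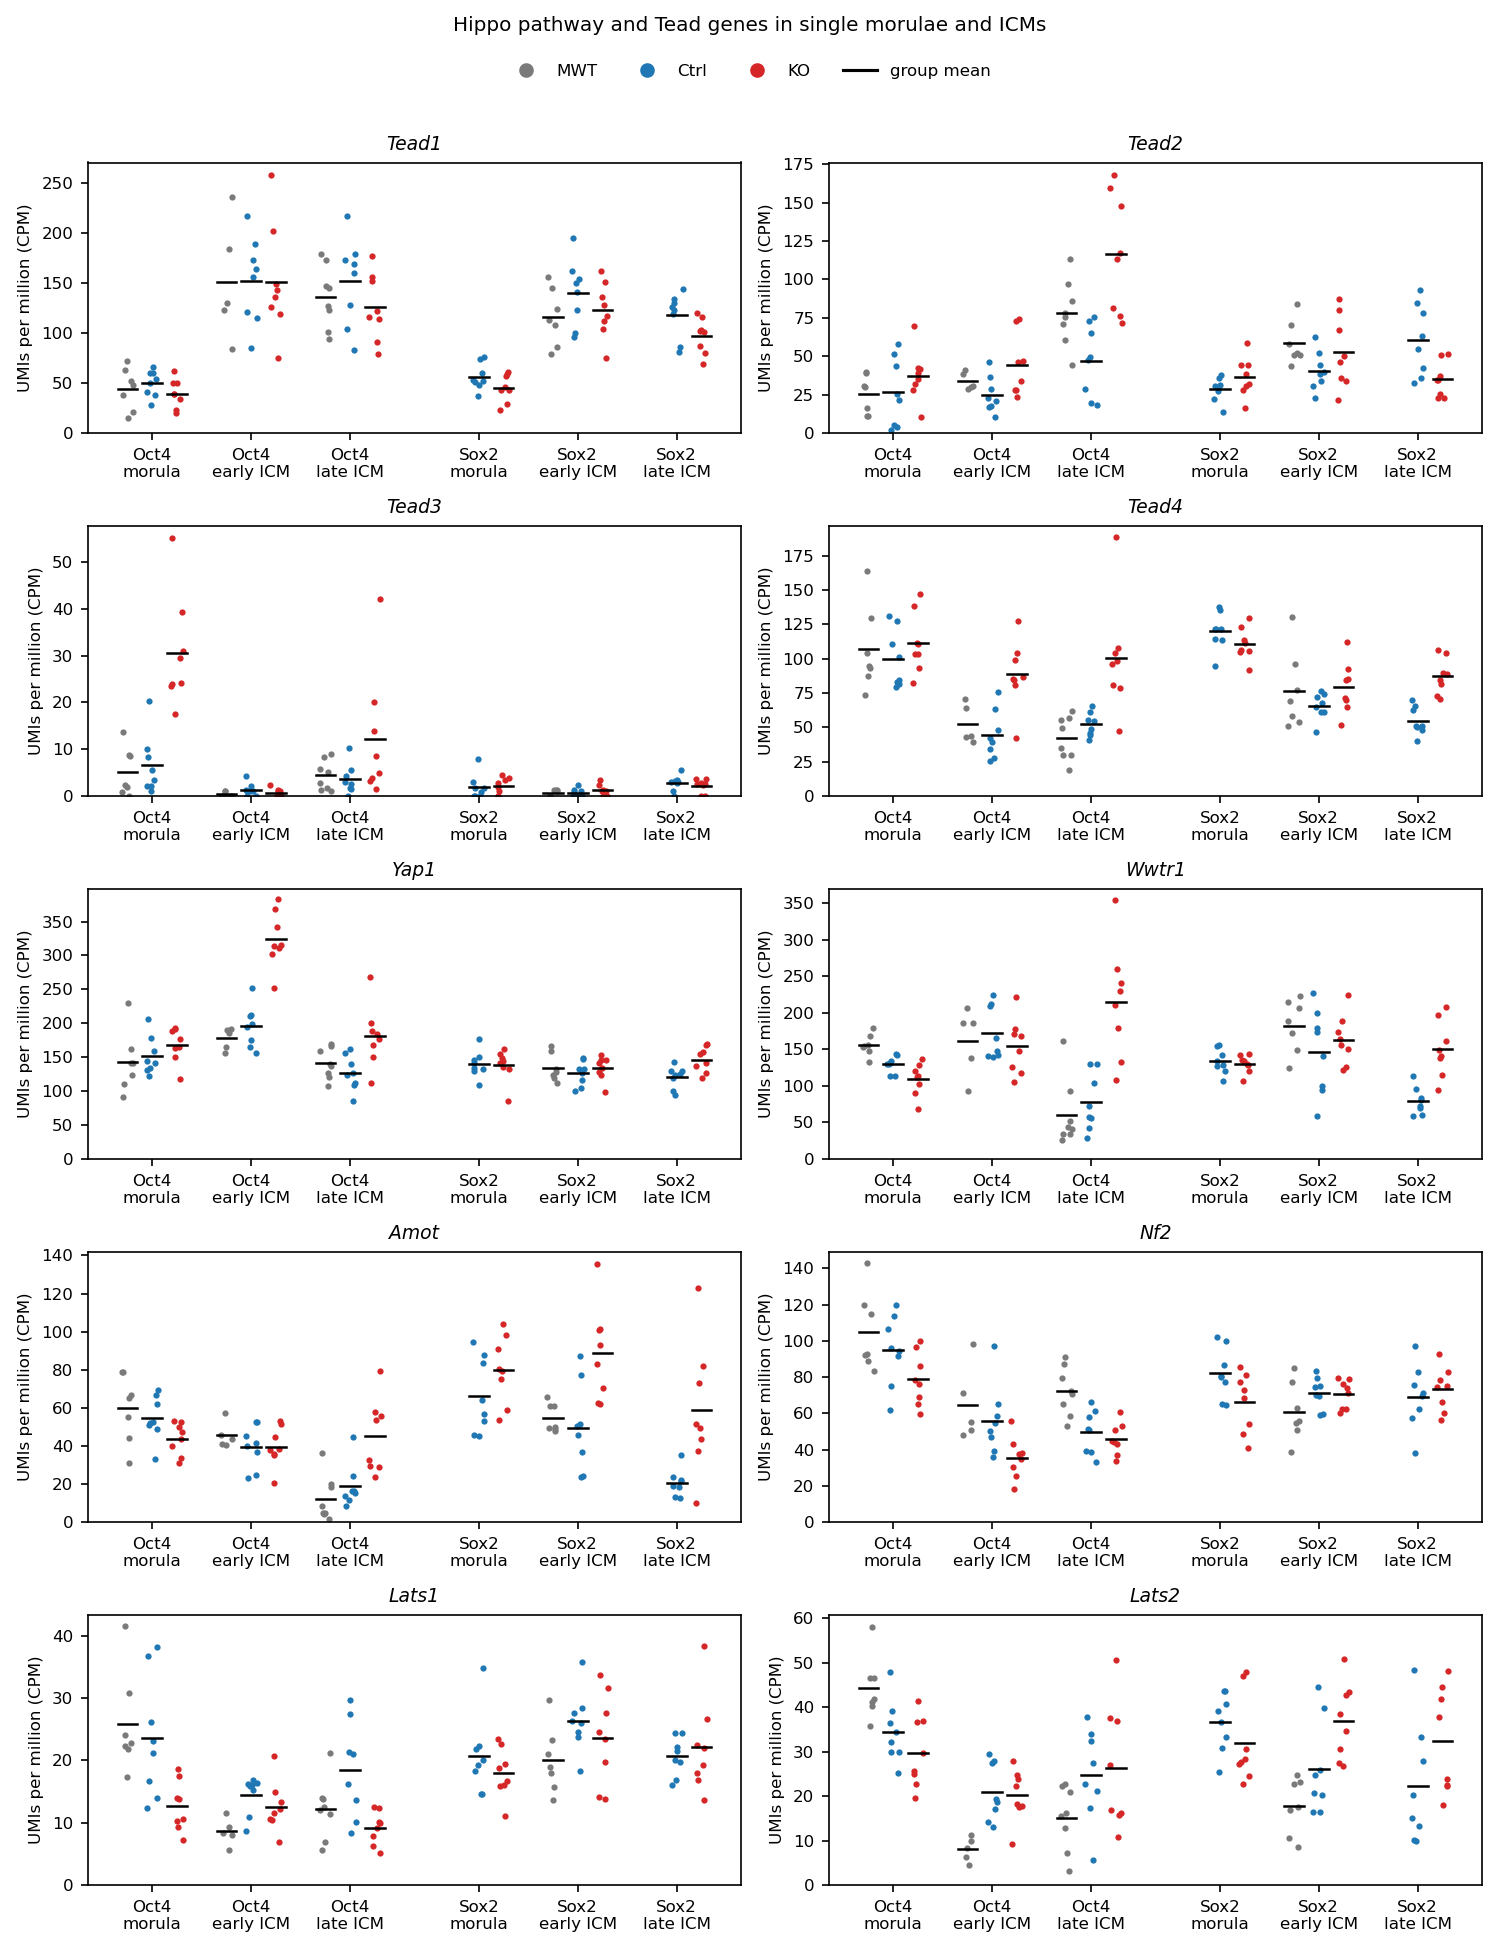
Level of each of the 10 genes in CPM on the vertical axis, with 1 point per embryo and a black bar at the group mean, for MWT, Ctrl and KO groups of each line and stage on the horizontal axis. Tead3 stands at 17.6 to 55.01 CPM in Oct4-KO morulae against 0.979 to 20.3 in Ctrl, Tead1 lies higher in ICMs than in morulae, and Wwtr1 in Oct4-KO late ICMs lies at 108 to 353 CPM against 28.8 to 129.9 in Ctrl.

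The coactivators Yap1 (chromosome 9, 7931999 to 8004596, minus strand) and Wwtr1 (chromosome 3, 57455649 to 57575910, minus strand), which carry no DNA-binding domain of their own and act through TEAD factors, both differed in Oct4-KO late ICMs by adjusted p, and Yap1 also in early ICMs. Yap1 had lowest, median and highest levels of 156, 197 and 252 CPM in Oct4 Ctrl early ICMs and 251, 315 and 384 CPM in Oct4-KO early ICMs, with 7 of 8 KO ICMs above the highest Ctrl ICM. The log2 fold change was 0.73 ± 0.12 (adjusted p = 1.05e-06), past the adjusted p and under the fold minimum. It was 0.53 ± 0.12 (adjusted p = 3.69e-04) in Oct4-KO late ICMs, and in the Sox2 line 0.07 ± 0.12 (adjusted p = 0.812) in early and 0.28 ± 0.12 (adjusted p = 0.124) in late ICMs. Wwtr1 was close to Ctrl in Oct4-KO early ICMs, at -0.16 ± 0.19 (adjusted p = 0.614), and was higher in late ICMs. There its levels were 28.8, 65.4 and 129.9 CPM in Oct4 Ctrl and 108, 219.9 and 353 CPM in Oct4-KO, and 7 of 8 KO ICMs lay above the highest Ctrl ICM. Wwtr1 rose in Oct4-KO late ICMs, by 1.47 ± 0.20 (adjusted p = 2.25e-09), the lowest adjusted p of any member in a KO comparison. In Sox2-KO late ICMs the levels were 93.7, 145 and 208 CPM against 58.5, 76.6 and 114 in Ctrl, and the log2 fold change of 0.93 ± 0.20 (adjusted p = 2.51e-04) passed by adjusted p and fell just short of the fold minimum. In Oct4-KO morulae Wwtr1 was at -0.24 ± 0.19 (adjusted p = 0.710) and Yap1 at 0.16 ± 0.12 (adjusted p = 0.682).

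Amot, the junctional scaffold that binds YAP and activates LATS in inner cells, was the member called in both lines. In late ICMs its lowest, median and highest levels were 8.49, 15.8 and 44.7 CPM in Oct4 Ctrl and 23.8, 43.00 and 79.2 CPM in Oct4-KO. They were 12.4, 20.2 and 34.99 CPM in Sox2 Ctrl and 10.2, 50.4 and 122.8 CPM in Sox2-KO. The groups overlap in both lines, with 4 of 8 Oct4-KO and 7 of 8 Sox2-KO ICMs above the highest Ctrl ICM of their line. Amot rose in late ICMs by 1.27 ± 0.29 (adjusted p = 2.87e-04) in Oct4-KO and by 1.49 ± 0.27 (adjusted p = 1.82e-05) in Sox2-KO. In early ICMs the values were 0.00 ± 0.26 (adjusted p = 0.999) in Oct4-KO and 0.81 ± 0.24 (adjusted p = 0.0212) in Sox2-KO, the latter past the adjusted p only. Nf2 (chromosome 11, 4765845 to 4849536, minus strand), the gene for merlin, was at 35.8, 52.5 and 96.98 CPM in Oct4 Ctrl and 18.2, 36.3 and 55.8 CPM in Oct4-KO early ICMs (lowest, median and highest), a log2 fold change of -0.64 ± 0.17 (adjusted p = 0.00286) that missed the fold minimum. It was at -0.11 ± 0.17 (adjusted p = 0.694) in Oct4-KO and 0.08 ± 0.16 (adjusted p = 0.806) in Sox2-KO late ICMs.

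**Figure D3:**
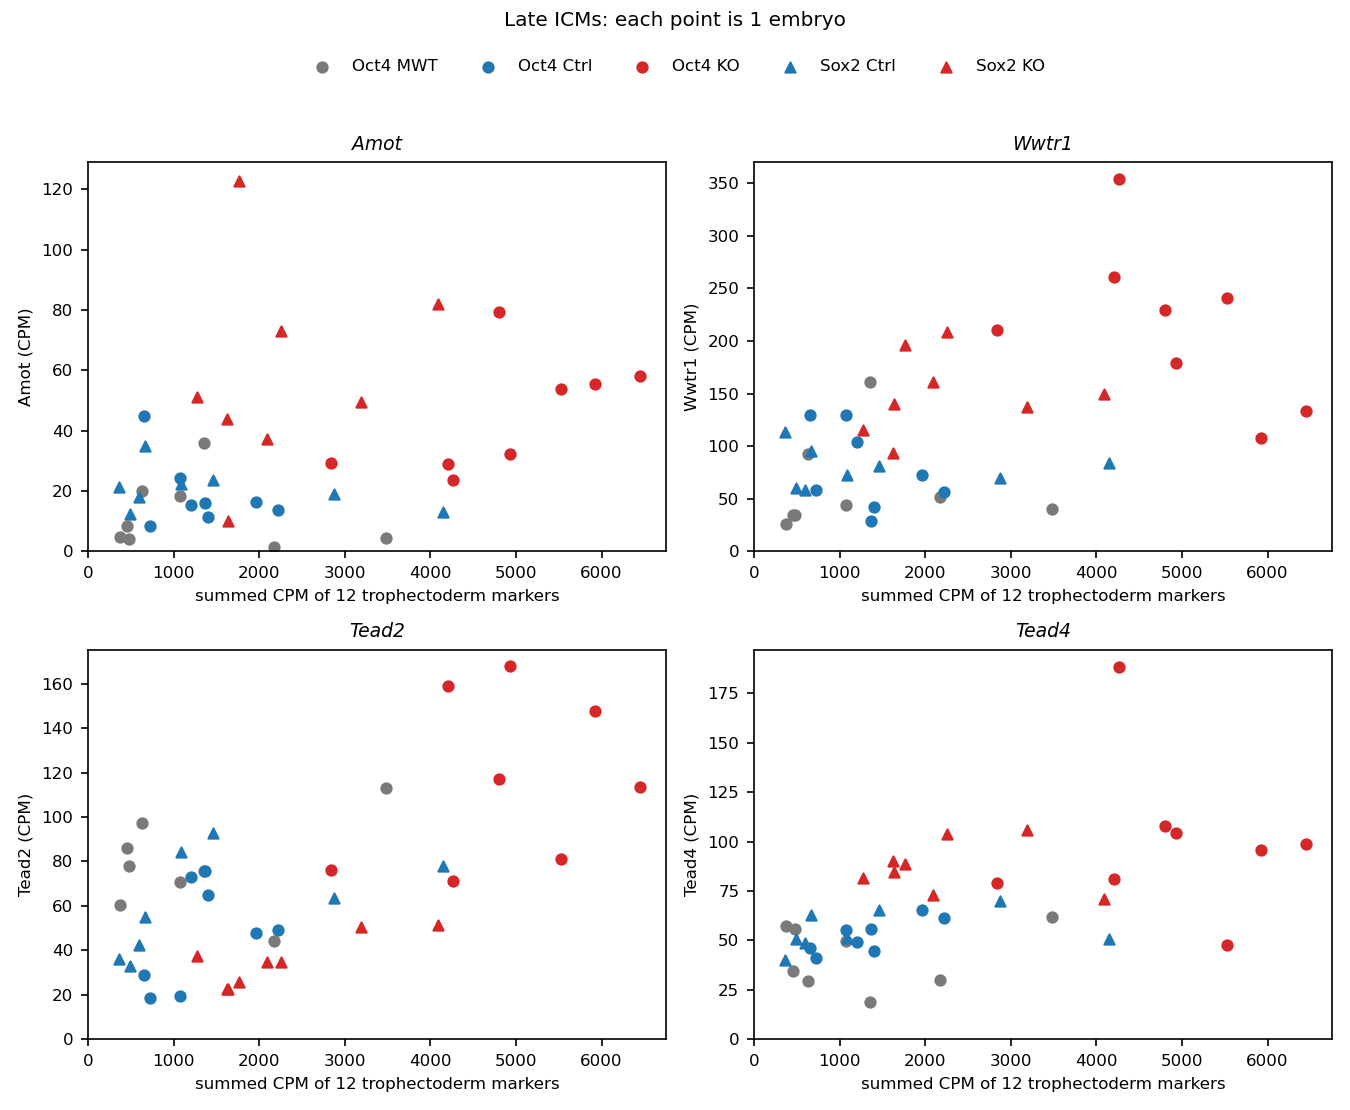
Level of Amot, Wwtr1, Tead2 and Tead4 (CPM, vertical axes) against the summed CPM of 12 trophectoderm markers (horizontal axes) in late ICMs, 1 point per embryo, coloured by genotype, with circles for the Oct4 line and triangles for the Sox2 line. The Oct4-KO ICMs lie to the right of the Oct4 Ctrl ICMs in each panel, and the Sox2-KO ICMs lie low in the Tead2 panel, at 22.5 to 51.3 CPM.

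Amot lies on the X chromosome (145446425 to 145505181 in mm10, minus strand), and the groups differed in how many embryos held Y-linked transcripts. Over Ddx3y, Eif2s3y, Kdm5d and Uty, 65 embryos had at most 6 UMIs and 58 had at least 60. Embryos with 10 or more numbered 5 of 8 Oct4 Ctrl against 2 of 8 Oct4-KO late ICMs, and 6 of 8 Sox2 Ctrl against 3 of 8 Sox2-KO late ICMs. In morulae the mean level of Amot was higher in embryos with fewer Y-linked UMIs in all 5 groups, for example 50.7 against 36.99 CPM in Oct4-KO, 4 embryos each. In ICMs the order varied between groups. The mean was lower in embryos with fewer Y-linked UMIs in Oct4 Ctrl late ICMs, at 13.4 against 22.1 CPM, in Sox2-KO early ICMs, at 79.5 against 104 CPM, and in Sox2-KO late ICMs, at 44.8 against 81.8 CPM. It was also lower in Sox2 Ctrl early ICMs and in both Oct4 MWT ICM groups, and higher in the other ICM groups. With a term for this split in the edgeR fit, chosen after the data were seen, the Amot log2 fold change in late ICMs was 1.23 (adjusted p = 5.35e-04) in Oct4-KO and 1.47 (adjusted p = 2.83e-05) in Sox2-KO, and both remained called.

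**Figure D4:**
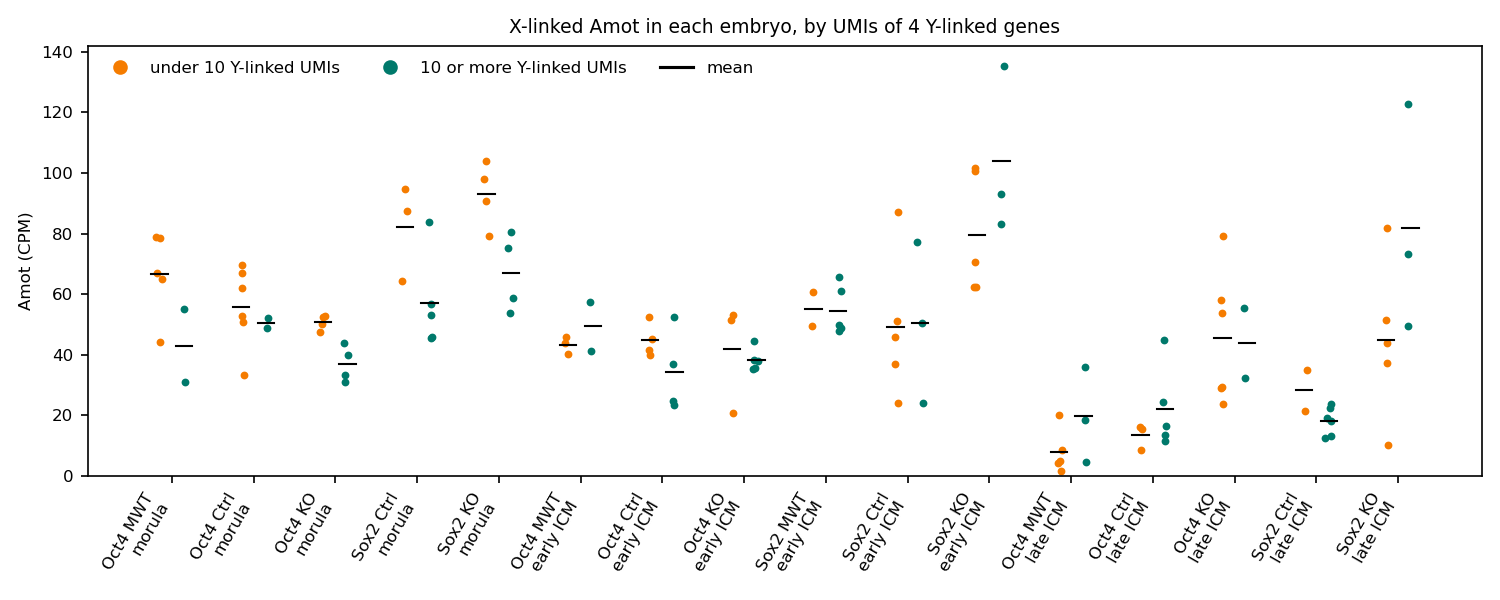
Level of Amot (CPM, vertical axis) in each of the 16 groups (horizontal axis), 1 point per embryo, split into embryos with under 10 and with 10 or more UMIs over 4 Y-linked genes, with a bar at each mean. In the 5 morula groups the mean is higher with fewer Y-linked UMIs, and in ICMs the order varies, being lower with fewer in Oct4 Ctrl late ICMs and in Sox2-KO early and late ICMs among others.

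Neither LATS kinase was called in a KO comparison. Lats1 (chromosome 10, 7681214 to 7716460, plus strand), which phosphorylates YAP and TAZ, was lower in Oct4-KO morulae and late ICMs by adjusted p, without reaching the fold minimum. In morulae its lowest, median and highest levels were 12.4, 22.2 and 38.2 CPM in Oct4 Ctrl and 7.16, 12.2 and 18.7 CPM in Oct4-KO (-0.87 ± 0.22, adjusted p = 0.0174). In late ICMs they were 8.43, 18.6 and 29.7 CPM in Ctrl and 5.09, 9.56 and 12.5 CPM in KO (-0.98 ± 0.25, adjusted p = 0.00143). The groups overlap at both stages. In Sox2-KO late ICMs Lats1 was at 0.12 ± 0.22 (adjusted p = 0.794), and the difference between the 2 lines' effects was called, at -1.10 ± 0.33 (adjusted p = 0.0240). Without the filter on low counts this call was lost, at -1.08 (adjusted p = 0.0698). Against the same Ctrl embryos Lats1 in Oct4 MWT ICMs, which are not labelled KO, was at -0.74 ± 0.28 (adjusted p = 0.266) in early ICMs. It was at -0.60 ± 0.24 (adjusted p = 0.208) in late ICMs, and neither passed. The part of the level of these Ctrl embryos in the Lats1 results was not tested. Lats2 (chromosome 14, 57689662 to 57758388, minus strand), its close relative, passed in no KO comparison. Its values ran from -0.19 ± 0.24 (adjusted p = 1.00) in Sox2-KO morulae to 0.55 ± 0.26 (adjusted p = 0.150) in Sox2-KO late ICMs. Lats2 shares exon sequence on the same strand with Gm49361, which holds 266 UMIs over all embryos against 3014 for Lats2.

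The promoters of the 4 members that rose in Oct4-KO late ICMs are shown because Oct4 and Sox2 bind known DNA motifs and because YAP and TAZ act on promoters through the TEAD motif. RefSeq (GRCm38.p6) gave windows of 300 bases, 250 before to 50 after a start, for 8 of the 10 genes, and 13 windows in all. The letters searched, on both strands, were GGAATG for TEAD, ATGCAAAT for the octamer bound by Oct4 and ACAAAG for SOX factors. Matches are in capitals. Where a gene has several windows, the one at a principal transcript start of the GENCODE annotation is shown, or else one at another GENCODE start. The Tead2 window matches no GENCODE start. Of the Tead3 windows not shown, chr17:28350297-28350596 held 0 TEAD matches and chr17:28350756-28351055 held 1. Tead3 (chr17:28350551-28350850, minus strand) holds 3 TEAD matches, Wwtr1 (chr3:57575861-57576160, minus strand) 1 TEAD match, Amot (chrX:145487590-145487889, minus strand) 1 SOX match and Tead2 (chr7:45215542-45215841, plus strand) 1 SOX match.
Tead3: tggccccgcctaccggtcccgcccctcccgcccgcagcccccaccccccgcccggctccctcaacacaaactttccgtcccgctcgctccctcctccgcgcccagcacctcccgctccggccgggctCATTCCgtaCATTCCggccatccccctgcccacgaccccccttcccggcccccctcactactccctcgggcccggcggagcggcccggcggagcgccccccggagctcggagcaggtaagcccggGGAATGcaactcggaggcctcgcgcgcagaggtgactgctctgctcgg
Wwtr1: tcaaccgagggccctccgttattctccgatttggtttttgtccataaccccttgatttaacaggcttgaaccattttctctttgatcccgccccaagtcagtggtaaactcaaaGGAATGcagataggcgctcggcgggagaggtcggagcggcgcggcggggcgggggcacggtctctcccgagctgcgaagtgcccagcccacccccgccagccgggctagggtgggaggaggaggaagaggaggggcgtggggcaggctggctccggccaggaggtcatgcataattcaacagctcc
Amot: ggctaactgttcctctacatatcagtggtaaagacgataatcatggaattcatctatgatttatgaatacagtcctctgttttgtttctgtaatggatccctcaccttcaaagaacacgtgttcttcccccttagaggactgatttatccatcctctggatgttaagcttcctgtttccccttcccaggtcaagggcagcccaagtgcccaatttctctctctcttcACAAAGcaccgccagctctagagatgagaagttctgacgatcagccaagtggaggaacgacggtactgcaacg
Tead2: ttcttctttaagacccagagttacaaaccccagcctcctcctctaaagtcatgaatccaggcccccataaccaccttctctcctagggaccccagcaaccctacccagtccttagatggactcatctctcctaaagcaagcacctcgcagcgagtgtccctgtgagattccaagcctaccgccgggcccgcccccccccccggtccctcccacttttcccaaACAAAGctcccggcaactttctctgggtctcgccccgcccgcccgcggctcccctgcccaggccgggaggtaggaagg

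Of the TEAD matches in Tead3, 2 lie before the start, the nearer of them by 114 bases, and 1 lies 2 bases after it. That in Wwtr1 lies 136 bases before, and the SOX matches in Amot and Tead2 23 and 28 bases before. Over the 13 windows of the 8 genes, several of which overlap, 6 held the TEAD letters, 2 the SOX letters and 0 the octamer. Of all 32851 RefSeq windows of this length, 14.7% held the TEAD letters, 18.7% the SOX letters and 1.74% the octamer. A match of 6 letters is a description of the sequence and no measured site.

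Across the stages of the Ctrl embryos Tead1 was the TEAD factor that rose in both lines. From morula to early ICM, 1 member rose and 2 fell in the Oct4 line, where 29% of all genes were called, and 1 rose in the Sox2 line, where 31.9% were. Its levels went from 49.6 ± 12.97 to 152 ± 43.2 CPM (mean ± SD, n = 8) in Oct4 Ctrl, a log2 fold change of 1.60 ± 0.20 (adjusted p = 6.19e-11). They went from 56.3 ± 13.2 to 140.0 ± 32.96 CPM in Sox2 Ctrl, 1.29 ± 0.20 (adjusted p = 2.08e-08). In both lines the lowest early ICM lay above the highest morula. Tead4 fell in the Oct4 line, from 99.8 ± 21.1 to 44.6 ± 17.4 CPM, -1.18 ± 0.17 (adjusted p = 4.46e-09), and was -0.89 ± 0.16 (adjusted p = 1.59e-06) in the Sox2 line, short of the fold minimum. Tead3 fell in the Oct4 line, -2.13 ± 0.62 (adjusted p = 0.00273), from a low level. Over the same step the cell type markers changed too. Of the 12 epiblast markers 10 were called higher in Oct4 Ctrl and 5 in Sox2 Ctrl, and 6 of 10 primitive endoderm markers were called higher and 2 lower in each line. Of the 12 trophectoderm markers, 2 were called higher and 1 lower in Oct4 Ctrl and 7 lower in Sox2 Ctrl. The part of these in the Tead results was not tested. By adjusted p alone 7 members differed in the Oct4 line and 2 in the Sox2 line.

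From early to late ICM, 2 members fell in the Oct4 line, where 15.6% of all genes were called, and 1 in the Sox2 line, where 2.9% were. By the nearness given above, 5 of the 8 Sox2 Ctrl early ICMs already lay closer to late ICMs, and the part of this in both stage steps of the Sox2 line was not tested. Amot fell in both, from 39.5 ± 11.1 to 18.8 ± 11.4 CPM in Oct4 Ctrl, -1.05 ± 0.29 (adjusted p = 0.00259). It went from 49.6 ± 22.9 to 20.6 ± 7.07 CPM in Sox2 Ctrl, -1.29 ± 0.27 (adjusted p = 8.93e-04). Wwtr1 fell in Oct4 Ctrl, from 173 ± 36.4 to 77.6 ± 38.98 CPM, -1.13 ± 0.20 (adjusted p = 2.23e-06), and was -0.91 ± 0.19 (adjusted p = 0.00108) in Sox2 Ctrl, short of the fold minimum. Markers moved over this step as well. In Oct4 Ctrl, 2 trophectoderm, 3 epiblast and 4 primitive endoderm markers were called higher and 2 primitive endoderm markers lower. In Sox2 Ctrl, 5 trophectoderm, 1 epiblast and 3 primitive endoderm markers were called higher. Their part was not tested. In Oct4-KO embryos the means of Amot were 39.6 ± 10.3 and 45.1 ± 19.4 CPM in early and late ICMs and those of Wwtr1 154 ± 38.2 and 214 ± 77.1 CPM. The genes that rose in Oct4-KO late ICMs thus include the 2 that fell with stage in the Ctrl embryos of that line. The Ctrl late ICMs are shared by both comparisons.

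Whether an effect differed between lines or stages was tested by interaction terms of the same fit. In the terms between lines the targeted factor cannot be told apart from anything else that differs between the lines, such as a batch. Between the lines, 0 members were called in morulae, 0 in early ICMs and 2 in late ICMs, where 0.356%, 5.52% and 6.3% of all genes were. In morulae and early ICMs 2 and 4 had an unadjusted edgeR p under 0.05, and DESeq2 called 0 and 0. The 2 were Tead2 and Lats1, given above. In early ICMs Yap1 (0.66 ± 0.17, adjusted p = 0.00671) and Tead4 (0.74 ± 0.24, adjusted p = 0.0335) had larger Oct4-KO than Sox2-KO effects by adjusted p, under the fold minimum. By the nearness given above, 5 of the 8 Sox2 Ctrl early ICMs lay closer to late ICMs, and the part of this was not tested. For Amot and Wwtr1 in late ICMs the difference between lines was -0.22 ± 0.40 (adjusted p = 0.822) and 0.54 ± 0.28 (adjusted p = 0.239), and did not pass. Between stages of the Oct4 line, 0 members were called from morula to early ICM, where 3.29% of all genes were (4 at an unadjusted p under 0.05, 1 called by DESeq2), and 2 from early to late ICM, where 3.11% were: Wwtr1, at 1.63 ± 0.27 (adjusted p = 6.23e-05), and Amot, at 1.26 ± 0.39 (adjusted p = 0.0411). The Tead4 and Yap1 effects were larger in early ICMs than in morulae by adjusted p alone, 0.82 ± 0.23 (adjusted p = 0.0203) and 0.57 ± 0.17 (adjusted p = 0.0300). In the Sox2 line 0 members were called for either step, where 0.882% and 0.0427% of all genes were, with 0 and 2 at an unadjusted edgeR p under 0.05 and 0 and 0 called by DESeq2.

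The MWT embryos differed from Ctrl in 1 member. None of the 10 was called in Oct4 morulae, 1 in Oct4 early ICMs and none in Oct4 late or Sox2 early ICMs, where 0.0646%, 0.373%, 0.797% and 2.58% of the 13923 genes tested over the embryos of all 16 groups were. At an unadjusted edgeR p under 0.05 there were 0, 2, 4 and 1, and DESeq2 called 0, 1, 0 and 0. The labels leave the inhibitor treatment of the Oct4 MWT early ICMs unstated, while their Ctrl group is labelled as treated, so that a difference in treatment, if there was one, cannot be told apart from the genotype label there. Lats2 fell in Oct4 MWT early ICMs, with 4.47, 6.24, 8.37, 9.83 and 11.2 CPM in the 5 embryos against 13.04, 19.01 and 29.4 CPM (lowest, median and highest) in Ctrl. The groups do not overlap, and the log2 fold change was -1.37 ± 0.34 (adjusted p = 0.0276). The call was lost when any of 7 of the 13 embryos was left out. The source names of the Oct4 MWT early and late ICMs give an earlier stage than their titles, and the titles were used. All 5 and all 8 lay nearest to the mean Ctrl profile of their titled stage. Of the cell type markers, 4 of 10 primitive endoderm markers were called lower in Oct4 MWT late ICMs, with a median log2 fold change of -1.41 over the 10. In Sox2 MWT early ICMs 2 trophectoderm and 2 primitive endoderm markers were called higher, and 1 epiblast marker was called higher and 2 lower. In Oct4 MWT early ICMs 0 of these markers were called by edgeR, while 5 of 12 trophectoderm, 1 of 10 primitive endoderm and 3 of 12 epiblast markers had an unadjusted p under 0.05. The part of the markers in the MWT results was not tested. Amot in Oct4 MWT late ICMs was at 1.43, 6.61 and 36.1 CPM (lowest, median and highest), and did not pass against Ctrl, at -0.62 ± 0.35 (adjusted p = 0.430).

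Among 23 other core and upstream genes of the pathway, of which 21 were tested, 3 were called higher and 1 lower in Oct4-KO early ICMs and 4 higher and 2 lower in late ICMs, with 0 in morulae, beside 10.9%, 18.1% and 0.804% of all genes. The median log2 fold change of the 21 was 0.05 in early and 0.18 in late ICMs, beside 0.01 and -0.01 over all genes. In the Sox2-KO line 2 were called higher in early ICMs and 1 lower in late ICMs, with 0 in morulae, beside 3.27%, 6.95% and 0.00712% of all genes. Vgll1, a TEAD cofactor known from trophectoderm, rose in Oct4-KO early ICMs, by 2.20 ± 0.72 (adjusted p = 0.0184), and in late ICMs, by 1.91 ± 0.61 (adjusted p = 0.0108). Its late ICM levels were 3.02 ± 4.76 CPM in Ctrl and 12.5 ± 10.5 CPM in KO (mean ± SD, n = 8). Vgll3, of the same family, rose in late ICMs by 2.44 ± 0.75 (adjusted p = 0.00769), and Limd1, a LIM protein that restrains LATS, by 1.61 ± 0.40 (adjusted p = 8.16e-04). Wwc1 (KIBRA), an upstream activator of the kinases, rose in early ICMs by 1.04 ± 0.36 (adjusted p = 0.0287). Wtip, a LIM protein related to Limd1, fell, with a log2 fold change of -1.21 ± 0.42 (adjusted p = 0.0294) in Oct4-KO early ICMs, -3.13 ± 0.44 (adjusted p = 6.68e-09) in Oct4-KO late ICMs and -1.48 ± 0.35 (adjusted p = 0.00126) in Sox2-KO late ICMs. The other gene called lower in Oct4-KO late ICMs was Stk3 (MST2), which phosphorylates LATS, at -1.19 ± 0.27 (adjusted p = 2.21e-04). Amotl2, a relative of Amot, rose in Sox2-KO early ICMs by 1.22 ± 0.33 (adjusted p = 0.0114). Amotl1 in both Oct4-KO ICM stages and Vgll4 in Sox2-KO early ICMs were also called higher, at under 10 CPM in each group of those comparisons.

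Of 19 genes for apical-basal polarity and cell adhesion, the cues that set the pathway in the embryo, 1 was called higher in Oct4-KO early ICMs, 4 higher and 1 lower in late ICMs and 1 higher in Sox2-KO late ICMs. Over all genes 10.9%, 18.1% and 6.95% were called in these comparisons. None of the 19 was called in Sox2-KO early ICMs or in morulae of either line. By adjusted p alone 8 of the 19 passed in Oct4-KO early and 10 in late ICMs, where 21% and 31.7% of all genes did. In Sox2-KO early and late ICMs 5 and 5 passed, where 7.04% and 13.8% did. In Oct4-KO late ICMs Prkcz, an atypical protein kinase C, rose by 1.69 ± 0.17 (adjusted p = 5.97e-14), Crb3, an apical membrane protein, by 1.58 ± 0.27 (adjusted p = 1.84e-06), Pard6b by 1.22 ± 0.19 (adjusted p = 9.75e-08) and Pard3 by 1.14 ± 0.16 (adjusted p = 1.03e-08). The 1 called lower was Pard6g, of the same family as Pard6b, and Prkci, Pard6a, Mpp5 and Patj of this list were not called. Crb3 also rose in Oct4-KO early ICMs, by 1.44 ± 0.30 (adjusted p = 1.15e-04), and Pard6b in Sox2-KO late ICMs, by 1.21 ± 0.18 (adjusted p = 1.43e-07). The median over the 19 in Oct4-KO late ICMs was 0.10, beside -0.01 over all genes. Trophectoderm markers were also called in these 3 ICM comparisons with calls, as given above, and their part was not tested.

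Of 19 genes known as targets of YAP, TAZ and TEAD in other cells, 13 passed the filter on low counts. In Oct4-KO embryos none of the 13 was called higher at any stage, and 1, 4 and 2 were called lower in morulae, early and late ICMs, with medians of -0.71, -0.998 and -0.40. Over all genes 0.804%, 10.9% and 18.1% were called, with medians of 0.01, 0.01 and -0.01. Ccn2 (CTGF), a secreted matrix protein, fell, with a log2 fold change of -1.87 ± 0.32 (adjusted p = 3.26e-06) in early ICMs, from 339 ± 65.2 to 92.7 ± 62.8 CPM (mean ± SD, n = 8), and of -1.36 ± 0.31 (adjusted p = 2.87e-04) in late ICMs. Dock5, an activator of Rac, fell in the same stages, with log2 fold changes of -1.13 ± 0.25 (adjusted p = 3.70e-04) and -1.64 ± 0.24 (adjusted p = 2.91e-08). In Oct4 MWT ICMs, which are not labelled KO, 2 targets were also called lower. Summed over the 19 genes, the lowest, median and highest levels in early ICMs were 319, 479.9 and 664 CPM in Oct4 Ctrl, 77.7, 124 and 344 in Oct4-KO and 61.7, 141 and 158 in Oct4 MWT. Ccn2 carries much of this sum, at 339 ± 65.2 CPM (mean ± SD) in Oct4 Ctrl. In Sox2 early ICMs the sums were 315, 418 and 631 CPM in Ctrl, 239, 380.4 and 473 in KO, which overlap Ctrl, and 141, 188 and 315 in MWT, which do not. In Oct4 late ICMs they were 299, 686 and 990.3 CPM in Ctrl, 72.9, 409 and 544 in KO and 194, 276 and 668 in MWT, and the groups overlap. Of 11 targets tested over all 16 groups, 2 were called lower and 0 higher in Oct4 MWT against Ctrl at each ICM stage, Ccn1 and Ccn2, with medians of -1.06 and -0.73, where 0.373% and 0.797% of all genes were called. Ccn2 was at -2.46 ± 0.44 (adjusted p = 3.21e-04) in early and -1.26 ± 0.34 (adjusted p = 0.0324) in late ICMs. In Sox2 MWT early ICMs Ccn1 and Ccn2 were called lower and Nt5e higher. Lower Ccn2 was thus measured in both Oct4-KO and Oct4 MWT ICMs, against the same Ctrl embryos. In the Sox2-KO line 3 were called higher and 2 lower in early ICMs and 2 higher and 2 lower in late ICMs, beside 3.27% and 6.95% of all genes. Gadd45a, a stress-response gene, rose by 1.13 ± 0.37 (adjusted p = 0.0433) in early and 1.09 ± 0.37 (adjusted p = 0.0373) in late ICMs, and Crim1 by 1.78 ± 0.48 (adjusted p = 0.0114) in early ICMs, whereas Dock5 fell in both, at -1.67 ± 0.25 (adjusted p = 6.96e-07) and -1.99 ± 0.24 (adjusted p = 5.59e-10). F3 and Nt5e, called lower, and Ankrd1, called higher in Sox2-KO ICMs, were under 10 CPM in each group of these comparisons. These, like Ccn1, Pard6g, Stk3, Amotl1 and Vgll4 above, were named after their values were seen. Tead4 and Yap1 were higher by adjusted p in both Oct4-KO ICM stages, and Wwtr1 in the late one.

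Over the mean levels of the 16 groups, the genes whose pattern was most like that of Tead3, among 9700 with at least 10 CPM in some group, were Wipf1 (Pearson r 0.886), Vps37b (0.859) and Myl4 (0.859). Those most like Amot were Gabarapl2 (0.943), Baz1a (0.906) and Gnptab (0.897). These correlations describe group means that share their libraries, stages and lines, and are the highest of all candidates.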

How the data were processed

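Single embryos or ICMs were sequenced from the 3′ end with UMIs. Per the labels and the methods, the authors moved the UMI of each read aside (UMI-tools), cut poly-A tails (cutadapt), aligned to mm10 with TopHat2 and to the spike-ins with Bowtie2, counted per gene (featureCounts) and corrected for lost UMIs (TRUmiCount). The deposited counts are unique transcripts per gene; a deposited rlog table made with DESeq2 was not used, and versions are not given in the sources used here. Counts were fitted with edgeR 4.0.16 (TMM, quasi-likelihood F test, Benjamini-Hochberg over all genes) in R 4.3.3, with 1 mean per group: 96 Ctrl and KO embryos in 12 groups (14053 genes), or all embryos in 16 groups (13923 genes) for MWT. Genes needed a UMI in at least a share of 0.5 of the embryos of a stage. SE is the fold change over the square root of F. Nothing says that embryos of a group came from separate litters, so p-values measure the spread between embryos. All members were named; list genes were named if called in a KO comparison with at least 10 CPM in a group, at most 4 per list and comparison. Members and lists were chosen with earlier results of these data known. Alternatives were DESeq2 (1.42.0), other scalings, no filter, no fold minimum, blocks, a sex term and leaving out embryos. No 2 embryos of a group agreed within sampling noise (416 pairs). On data simulated for Oct4-KO late ICMs (14053 genes), 34% of genes changed 2-fold and 93% of those changed 4-fold were called. A 2-fold change lies at the fold minimum itself, and by adjusted p alone 65% of the genes changed 2-fold passed. Only genes above a minimum mean count were changed.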

Additional observations from a re-analysis of the deposited data

Results flagged for a closer look

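In 7 of the 160 sets formed by 1 gene and 1 group (4.38%), 1 embryo stood apart from the rest of its group by Dixon's criterion, which chance alone meets in about 5% of sets. Tead3 gave 3 of them, at few UMIs: 20.3 CPM in Oct4 Ctrl morula replicate 16 (next highest 9.93), 42.0 CPM in Oct4-KO late ICM replicate 1-2 (next 19.98, 25 UMIs) and 7.88 CPM in Sox2 Ctrl morula replicate 1 (next 3.06, 9 UMIs). Tead4 stood at 189 CPM in Oct4-KO late ICM replicate 1-8 (next 108), and Yap1 at 85.1 CPM, the lowest of its group, in Sox2-KO morula replicate 6 (next lowest 133). Lats1 was at 34.8 CPM in Sox2 Ctrl morula replicate 7 (next 22.3), and Amot at 44.7 CPM in Oct4 Ctrl late ICM replicate 1-3 (next 24.3). Of these, leaving out the Tead3 embryo among the Oct4-KO late ICMs ended a call.

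In 8 of 70 interaction tests of the members (7 terms, 10 genes) an effect differed between lines or stages at an adjusted p under 0.05 over all genes. The log2 difference between the Oct4-KO and Sox2-KO effects was 0.74 for Tead4 and 0.66 for Yap1 in early ICMs, and 2.12 for Tead2 and -1.10 for Lats1 in late ICMs. The Oct4-KO effect in early ICMs exceeded that in morulae by 0.82 for Tead4 and 0.57 for Yap1, and that in late ICMs exceeded that in early ICMs by 1.63 for Wwtr1 and 1.26 for Amot.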

How the results depend on the processing

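No alternative reversed the sign of a called member. Without the fold minimum, 2 members passed in Oct4-KO morulae, 3 in early and 7 in late ICMs, 1 in Sox2-KO early and 3 in late ICMs, 7 and 4 for the stage steps of Oct4 Ctrl, 2 and 2 for those of Sox2 Ctrl, 2 for the Oct4-KO effect in early ICMs minus morulae and 2 for the difference between lines in early ICMs. Tead4 was called in Oct4-KO early ICMs (1 member in place of 0) with DESeq2 and with its size factors in edgeR, at 1.01 in both. DESeq2 called 1 member in place of 0, Tead3, for the Oct4-KO effect in early ICMs minus morulae. With no filter, the difference between lines in late ICMs held 1 call in place of 2, since Lats1, at -1.08, no longer passed. Scaling by total UMIs called Lats1 in Oct4-KO late ICMs, making 5, and moved the median of all genes from Oct4 Ctrl morula to early ICM to 0.10.

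Leaving out each embryo in turn gave 1 to 1 members called in Oct4-KO morulae, 0 to 2 in early and 3 to 6 in late ICMs, 0 to 0 in Sox2-KO morulae, 0 to 0 in early and 1 to 2 in late ICMs, and 0 to 1 in Oct4 MWT early ICMs. Tead3 lost its call in Oct4-KO late ICMs without KO replicate 1-2, at 1.17. Tead4 was called in Oct4-KO early ICMs in 7 of 16 fits (1.00 to 1.14; without Ctrl replicates 4, 6 or 9, or KO 1, 10, 11 or 17), Tead2 there without Ctrl replicate 9 (1.01), Lats1 in Oct4-KO late ICMs in 6 (-1.09 to -1.001; without Ctrl 1-3, 1-9, 2-1 or 2-4, or KO 2-2 or 2-6), Tead4 there in 2 (without Ctrl 2-9 or KO 2-2) and Wwtr1 in Sox2-KO late ICMs in 2 (without Ctrl 2-3 or KO 2-6). Lats2 in Oct4 MWT early ICMs lost its call without MWT replicates 1, 7, 8 or 9, or Ctrl 2, 4 or 7.

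Over all genes, calls for the Sox2-KO effect in late minus early ICMs went from 6 to 39 with DESeq2, and in Oct4 MWT morulae from 9 to 15 with no filter. Scaling by total UMIs turned 469 higher and 508 lower calls among Sox2-KO late ICMs into 379 and 628, and 55 and 65 in Oct4 MWT late ICMs in place of 38 and 73. With no filter the Oct4 MWT late ICMs held 25 and 83, and the Sox2-KO effect in late minus early ICMs 8 higher and 0 lower in place of 5 and 1.

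Embryos of a line and stage that share a label number correlated in their deviations at -0.0779 to 0.231, so the numbers were not taken to pair them; a replicate block on shared numbers left 1, 0 and 4 members called in the Oct4-KO and 0, 0 and 1 in the Sox2-KO stages, as without it, and the label set block and the sex term changed no member count either. At the counts of Tead3 in ICMs, depth limits what can be seen.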
